A study of Mus musculus with 4 samples.

Results

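The immediate early genes studied here, 10 in number (*Fos*, *Fosb*, *Jun*, *Junb*, *Egr1*, *Arc*, *Npas4*, *Nr4a1*, *Nr4a3* and *Ier2*) were followed across the neuron classes and glia of the mouse brain. They were the rows of the deposited matrices with these symbols, 10 of 32285 genes, and all 10 had UMIs. The data were single-nucleus RNA counts from whole brains of female 5XFAD mice, an Alzheimer's disease model whose transgenes are driven by the neuronal Thy1 promoter. The mice were 7 to 10 weeks old at treatment by the series' design and received, intravenously, equal numbers of engineered extracellular vesicles with a low (PE-low EVs) or a high (PE-high EVs) content of phosphatidylethanolamine. Each group had 2 libraries, and nuclei of 2 mice were pooled in each. The 5XFAD genotype and the vesicle injection were common to both groups, and libraries of uninjected, vehicle-injected or wild-type mice were not analysed here. The time between injection and collection was not given for these libraries.

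Immediate early genes are transcribed within minutes of synaptic activity or other stimuli, without new protein synthesis, through factors that are already bound or nearby, such as CREB, SRF and MEF2. Most encode transcription factors that start a later programme of genes, and a few act directly at synapses. In the brain they are widely used as marks of recently active neurons. Their transcripts are short-lived, so a nuclear library records them as they stood at tissue collection.

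The *Fos* gene (ENSMUSG00000021250) lies on the + strand at chr12:85473890-85477273 of GRCm38, *Fosb* (ENSMUSG00000003545) on the − strand at chr7:19302696-19310051, *Jun* (ENSMUSG00000052684) on the − strand at chr4:95049034-95052222 and *Junb* (ENSMUSG00000052837) on the − strand at chr8:84974484-84978718. *Egr1* (ENSMUSG00000038418) lies on the + strand at chr18:34859823-34864984, *Arc* (ENSMUSG00000022602) on the − strand at chr15:74669083-74672570 and *Npas4* (ENSMUSG00000045903) on the − strand at chr19:4984355-4990316. *Nr4a1* (ENSMUSG00000023034) lies on the + strand at chr15:101254269-101274795, *Nr4a3* (ENSMUSG00000028341) on the + strand at chr4:48045153-48086447 and *Ier2* (ENSMUSG00000053560) on the − strand at chr8:84661331-84662852.

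Nuclei were named from marker genes, and the names carry "-like" for that reason. The 4 libraries, in the order PE-low replicate 1, PE-low replicate 2, PE-high replicate 1 and PE-high replicate 2 that is used throughout, gave 1238, 1036, 718 and 1558 excitatory neuron-like nuclei. They gave 745, 555, 354 and 792 striatal projection neuron-like nuclei and 208, 273, 114 and 258 other inhibitory neuron-like nuclei, called inhibitory neuron-like here. Glial classes were small, with 47 to 202 astrocyte-like, 49 to 229 oligodendrocyte-like, 20 to 97 oligodendrocyte precursor-like and 19 to 59 microglia-like nuclei per library. Median UMIs per excitatory neuron-like nucleus were 2665, 3556, 2161 and 2024. Levels are CPM, UMIs of a gene scaled to the usual common total over all UMIs of a class in a library. Since the reads come from the 3' end, levels were compared between classes for one gene and never between genes.

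Of the markers fixed for each class, 9 of 12 excitatory, 10 of 10 striatal, 9 of 10 inhibitory, 8 of 8 astrocyte, 8 of 8 oligodendrocyte, 7 of 7 precursor and 9 of 9 microglial genes had their highest level in their own class. RNA of other cells was nevertheless present. The summed level of the 12 excitatory markers was 3078 to 3249 CPM in excitatory neuron-like nuclei, 1791 to 2128 in striatal, 938 to 1211 in inhibitory, 2064 to 2667 in astrocyte-like, 1472 to 1775 in oligodendrocyte-like and 1602 to 2394 in microglia-like nuclei, and none of these markers was at 0 in any of these classes. In near-empty barcodes, those ranked 45000 to 90000 by UMIs, it was 3174 to 3547 CPM. The part of this background RNA in the levels of the 10 genes outside excitatory neuron-like nuclei was not tested, and the level of each gene in near-empty barcodes is given beside its results. Called nuclei with over 3% mitochondrial UMIs, 5443 to 12499 per library, were left out by the limit that the paper states. The paper nevertheless reports far more nuclei in each group than were kept here at 3%. Its numbers are closer to those kept at a limit of 15%, so the nuclei analysed here are not the study's own set. Libraries shared 0 to 4 barcodes among the nuclei kept.

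The promoters show a sequence feature that most of these genes share. CREB, which is phosphorylated after calcium entry or cAMP signalling, binds the cAMP response element, TGACG followed by TCA, and its half-site TGACG. A RefSeq table (GRCm38.p6) gave promoters for 7 of the 10 genes, and *Arc*, *Egr1* and *Ier2* had no entry in it. Within the 250 bases before the start, the half-site on either strand (TGACG or CGTCA) was found in 6 of the 7, against 17.8% of all 32851 promoters in the table. The full element was in 0 of the 7 (1.55% of all promoters), the AP-1 site (TGA, then C or G, then TCA) in 0 (4.46%), the CArG box that SRF binds in 0 (1.47%) and the TATA box TATAAA in 1, *Fos* (12.4%). Bases outside this window were not searched, so a site further upstream would be missed. The 5 windows below are printed 5′ to 3′ on the gene's strand, ending at the base before the start except for *Fosb*, whose 244 bases stop 6 bases short of it, where an annotated exon begins. Half-sites are in capitals; *Nr4a1* has the most, and *Jun* is shown as the one without any.
Fos, chr12:85473640-85473889, + strand: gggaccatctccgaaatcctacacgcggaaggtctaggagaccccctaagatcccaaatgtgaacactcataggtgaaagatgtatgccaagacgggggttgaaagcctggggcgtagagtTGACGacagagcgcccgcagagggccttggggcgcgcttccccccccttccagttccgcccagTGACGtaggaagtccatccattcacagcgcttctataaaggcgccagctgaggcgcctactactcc
Fosb, chr7:19310052-19310295, − strand: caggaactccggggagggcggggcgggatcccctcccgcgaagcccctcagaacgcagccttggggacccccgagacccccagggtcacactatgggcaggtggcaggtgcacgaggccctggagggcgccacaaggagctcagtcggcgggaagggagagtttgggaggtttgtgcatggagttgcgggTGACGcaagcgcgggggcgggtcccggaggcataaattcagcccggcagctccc
Junb, chr8:84978749-84978998, − strand: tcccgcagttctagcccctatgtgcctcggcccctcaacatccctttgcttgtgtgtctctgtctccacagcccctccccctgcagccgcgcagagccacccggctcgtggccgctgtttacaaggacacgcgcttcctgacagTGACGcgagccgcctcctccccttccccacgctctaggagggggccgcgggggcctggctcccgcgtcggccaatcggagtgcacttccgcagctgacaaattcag
Nr4a1, chr15:101266596-101266845, + strand: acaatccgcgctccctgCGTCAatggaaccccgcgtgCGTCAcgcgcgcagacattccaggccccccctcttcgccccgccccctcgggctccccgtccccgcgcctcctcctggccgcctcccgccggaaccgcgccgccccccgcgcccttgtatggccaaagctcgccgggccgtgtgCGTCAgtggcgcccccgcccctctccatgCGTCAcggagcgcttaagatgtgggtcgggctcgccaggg
Jun, chr4:95052223-95052472, − strand: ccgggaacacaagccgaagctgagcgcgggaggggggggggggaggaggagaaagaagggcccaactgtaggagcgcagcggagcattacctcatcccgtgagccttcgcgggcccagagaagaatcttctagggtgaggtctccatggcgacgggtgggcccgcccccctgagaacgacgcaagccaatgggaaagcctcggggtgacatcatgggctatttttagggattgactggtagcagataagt

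*Nr4a1* has 4 half-sites in its window, *Fos* 2 and *Fosb* and *Junb* 1 each. The *Nr4a1* start in the RefSeq table lies inside the longer gene span given above. *Nr4a3* held 4 half-sites and *Npas4* 2, and their windows are not printed because they overlap annotated exons. A letter match is a description of the sequence and does not show binding.

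*Nr4a1*, an orphan nuclear receptor that acts as a transcription factor, separated excitatory neurons from the other neurons most clearly. Its level in excitatory neuron-like nuclei was 55.2, 27.8, 31.4 and 31.5 CPM (192, 104, 53 and 108 UMIs). In striatal projection neuron-like nuclei it was 29.2, 7.51, 6.50 and 10.7 CPM, and in inhibitory neuron-like nuclei 21.1, 7.86, 8.51 and 12.1 CPM. In each library the excitatory level was above that of the other neuron classes, and PE-low replicate 1 was the highest library in each of them. The means were 36.5 ± 12.6 (SD, n = 4 libraries), 13.5 ± 10.6 and 12.4 ± 6.12 CPM. In near-empty barcodes *Nr4a1* was at 28.2, 11.4, 24.4 and 22.1 CPM, so excitatory neuron-like nuclei held 1.29 to 2.43 times that level. The striatal and inhibitory levels were below the near-empty level in 7 of these 8 class and library values.

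The related receptor gene *Nr4a3* was low in all neurons. It had 6.33, 4.28, 2.96 and 5.54 CPM in excitatory, 4.68, 4.62, 1.62 and 3.07 in striatal and 3.84, 1.12, 0 and 2.02 in inhibitory neuron-like nuclei. The excitatory level was above the inhibitory one in 4 of 4 libraries, although the ranges over libraries overlapped. The inhibitory values rest on 4 UMIs over the 4 libraries. Each lies below the level of 3 UMIs in its library, 3.37 to 12.8 CPM, so no difference is read from this direction. Near-empty barcodes held 12.5 to 17.0 CPM, above each neuron class in each library.

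*Egr1*, a zinc finger transcription factor, did not separate the striatal from the excitatory class. Its level was 54.6, 26.5, 29.01 and 24.5 CPM in excitatory, 43.3, 26.6, 39.0 and 45.2 in striatal and 32.7, 15.7, 12.8 and 40.4 in inhibitory neuron-like nuclei. PE-low replicate 1 was the highest library in the excitatory class and PE-high replicate 2 in the striatal and inhibitory classes, and the ranges overlapped. Near-empty barcodes held 224, 157, 189 and 187 CPM, so the excitatory level was only 0.131 to 0.244 of the near-empty level. *Egr1*, *Arc* and *Nr4a3* were below the near-empty level in each of the 28 combinations of 7 classes and 4 libraries.

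*Npas4*, a neuronal transcription factor induced through calcium entry, was the second gene that stood above near-empty barcodes in excitatory neuron-like nuclei. It had 11.5, 2.68, 5.92 and 5.24 CPM there (40, 10, 10 and 18 UMIs), which was 1.24 to 2.46 times the near-empty levels of 6.80, 2.17, 2.41 and 2.88 CPM. In striatal projection neuron-like nuclei it had 20.5, 1.16, 4.87 and 1.53 CPM (35, 2, 3 and 2 UMIs), and in inhibitory neuron-like nuclei 1.92, 3.37, 0 and 2.02 CPM. The striatal value of PE-low replicate 1 was the highest of the 4 libraries by far and came from both striatal types. They were direct pathway-like nuclei with 20.9 CPM (14 UMIs) and indirect pathway-like nuclei with 22.1 CPM (17 UMIs). Microglia-like nuclei had no *Npas4* UMI in any library, but the level of 3 UMIs there was 21.2 to 64.1 CPM, so absence is not read.

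The AP-1 subunit genes encode partners that bind DNA as dimers. *Junb* had 15.5, 6.96, 7.104 and 9.32 CPM in excitatory, 25.1, 11.6, 13.0 and 7.66 in striatal and 19.2, 7.86, 0 and 12.1 in inhibitory neuron-like nuclei, with 60.2, 30.5, 45.4 and 42.6 in near-empty barcodes. The striatal level was above the excitatory one in 3 of 4 libraries, and PE-low replicate 1 was the highest library in each class. *Jun* had 8.34, 10.2, 10.7 and 7.28 CPM in excitatory, 5.26, 3.47, 1.62 and 3.83 in striatal and 3.84, 10.1, 0 and 6.06 in inhibitory neuron-like nuclei. It was the one gene of the 10 whose excitatory level was not highest in PE-low replicate 1. Its striatal range lay wholly below its excitatory range, but on 21 striatal UMIs over the 4 libraries. The striatal value of PE-high replicate 1 lies below the level of 3 UMIs there, 4.87 CPM.

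*Fos*, the gene most often used as an activity mark, was near the limit of detection. Excitatory neuron-like nuclei held 14, 7, 4 and 6 *Fos* UMIs in the 4 libraries, or 4.03, 1.87, 2.37 and 1.75 CPM. Striatal projection neuron-like nuclei held 4, 0, 3 and 3 UMIs and inhibitory neuron-like nuclei 1, 3, 0 and 1. Near-empty barcodes held 8.51 to 12.3 CPM, and oligodendrocyte-like and microglia-like nuclei held none. Its paralog *Fosb* had 1.49 ± 1.08, 2.55 ± 0.673 and 1.04 ± 1.21 CPM in excitatory, striatal and inhibitory neuron-like nuclei (SD, n = 4), with the striatal level above the excitatory one in 4 of 4 libraries on 2 to 5 UMIs per library in the striatal class. *Ier2*, which encodes a nuclear protein of the early response, had 1.84 ± 0.957, 1.37 ± 0.984 and 1.24 ± 1.81 CPM, and no order of these classes can be read at this depth.

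*Arc* encodes a cytoskeleton-associated protein that acts at synapses and moves AMPA receptors from the membrane. It was nearly undetected in inhibitory neurons, with 1, 1, 1 and 0 UMIs there. The levels were 20.4, 5.36, 10.1 and 5.83 CPM in excitatory (71, 20, 17 and 20 UMIs), 9.35, 2.31, 9.75 and 5.36 in striatal and 1.92, 1.12, 4.25 and 0 in inhibitory neuron-like nuclei. The excitatory and inhibitory ranges did not overlap. Each inhibitory value lies below the level of 3 UMIs in its library, however, and those levels of 3.37 to 12.8 CPM span the lower excitatory values. The striatal level was below the excitatory one in 4 of 4 libraries with overlapping ranges. Near-empty barcodes held 31.5, 17.2, 21.5 and 19.4 CPM.

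**Figure D1:**
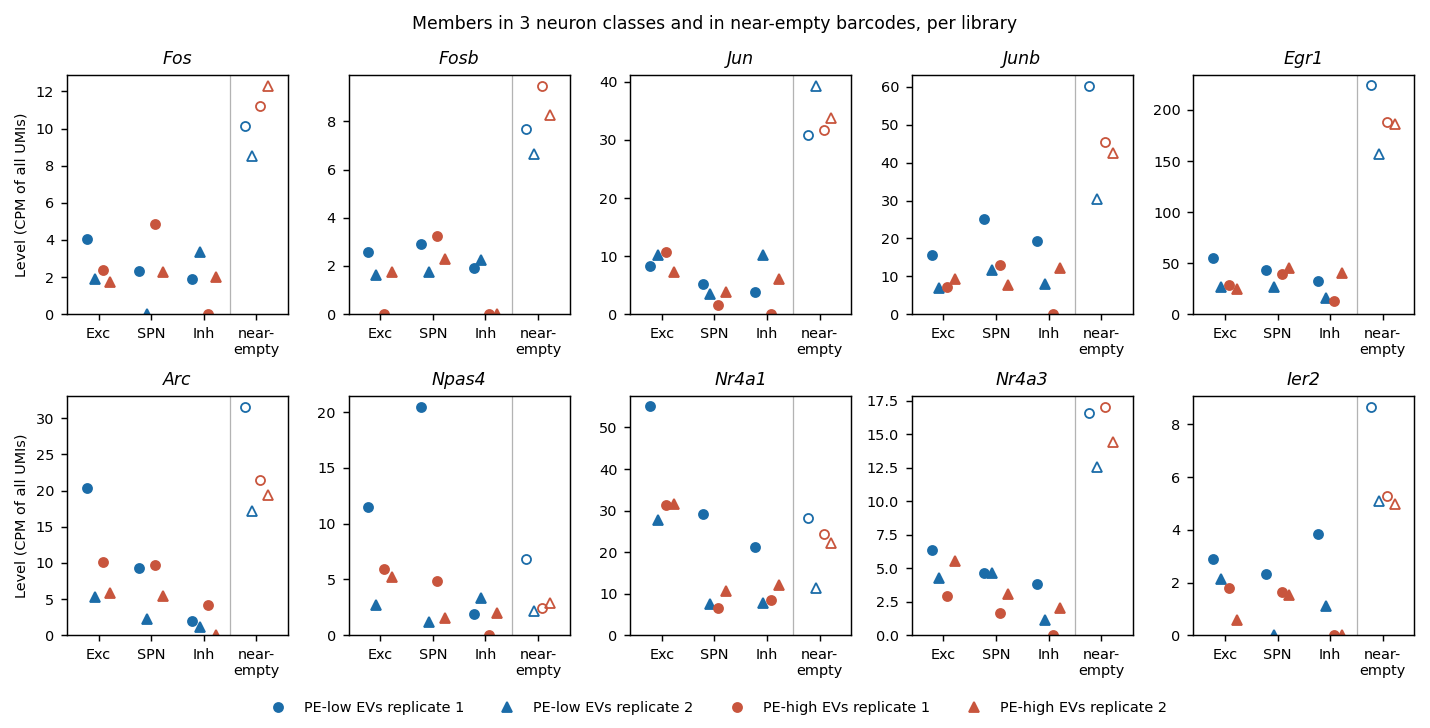
Level of each of the 10 immediate early genes (y axis, CPM, one panel per gene with its own scale) in excitatory (Exc), striatal projection (SPN) and inhibitory (Inh) neuron-like nuclei and in near-empty barcodes (open symbols). Each point is one library, blue for PE-low EVs, red for PE-high EVs, circles for replicate 1 and triangles for replicate 2. *Nr4a1* in excitatory nuclei, at 27.8 to 55.2 CPM, lies above the other neuron classes in each library, while *Egr1* near-empty values of 157 to 224 CPM lie above all classes.

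The levels were also ordered over all 7 classes. Of the 60 pairs of neighbours in the orders of the 10 genes, 59 had overlapping ranges over the 4 libraries, so neighbouring ranks cannot be told apart. The single pair that did not overlap was *Jun* in astrocyte-like nuclei, at 17.8, 22.0, 23.8 and 11.8 CPM, above *Jun* in excitatory neuron-like nuclei. *Jun* averaged 21.1 CPM in oligodendrocyte-like, 24.8 in precursor-like and 23.1 in microglia-like nuclei, against 9.11 ± 1.58, 3.55 ± 1.496 and 5.00 ± 4.22 in excitatory, striatal and inhibitory neuron-like nuclei (SD, n = 4). The glial values rest on few UMIs, 14 in astrocyte-like and 20 in oligodendrocyte-like nuclei over the 4 libraries, and near-empty barcodes held 30.8 to 39.3 CPM. The summed level of the 10 genes was 116 ± 43.7 CPM in excitatory, 93.4 ± 36.5 in striatal and 62.1 ± 29.02 in inhibitory neuron-like nuclei, and averaged 108 in astrocyte-like, 106 in oligodendrocyte-like, 152 in precursor-like and 107 in microglia-like nuclei. *Nr4a1* in glia ranged from 0 to 47.6 CPM and overlapped its range in every neuron class.

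**Figure D2:**
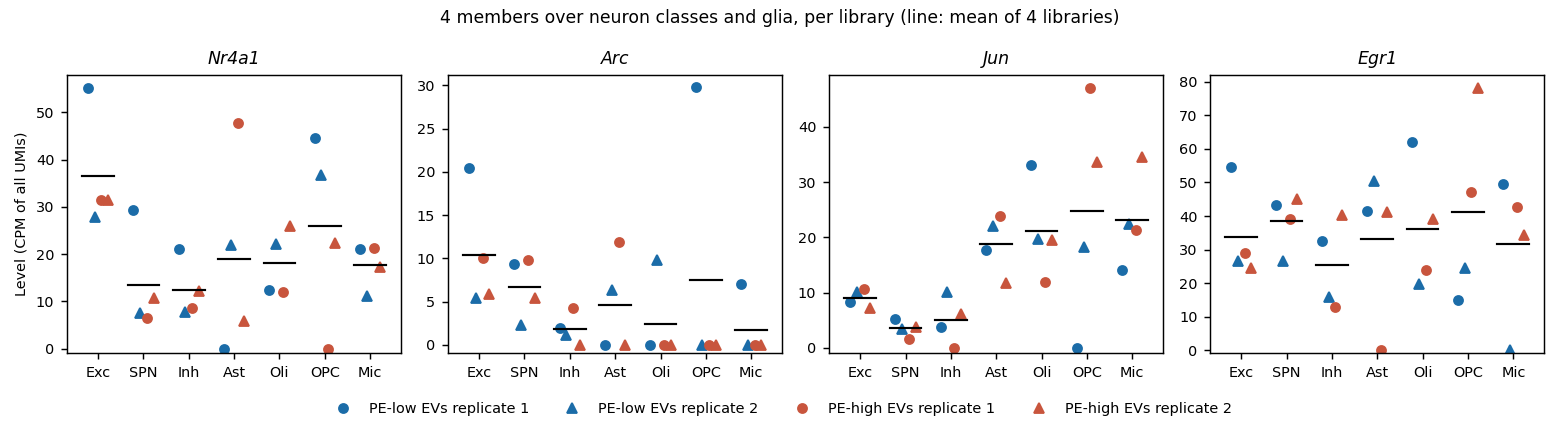
Levels of *Nr4a1*, *Arc*, *Jun* and *Egr1* (y axis, CPM) over 7 classes: excitatory (Exc), striatal projection (SPN) and inhibitory (Inh) neuron-like, astrocyte-like (Ast), oligodendrocyte-like (Oli), oligodendrocyte precursor-like (OPC) and microglia-like (Mic) nuclei. Points are the 4 libraries (blue PE-low EVs, red PE-high EVs, circles replicate 1, triangles replicate 2) and lines their mean; *Jun* means run from 3.55 CPM in striatal to 24.8 in precursor-like nuclei.

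The neuron classes were compared with edgeR's quasi-likelihood test on UMIs summed per library and class, with the library as a block and Benjamini-Hochberg adjustment over 11439 genes, and genes with an adjusted p under 0.1 were called. Nuclei are not replicates. With the library as a block, the p-values measure how far class differences vary between the 4 libraries. Between these classes large parts of all genes differ, so a call here is common. Of the 10 genes, 5 passed the filter on low counts (*Jun*, *Junb*, *Egr1*, *Arc* and *Nr4a1*), and *Fos*, *Fosb*, *Npas4*, *Nr4a3* and *Ier2* did not. A gene passes that filter more easily when it is high in a class.

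In striatal projection against excitatory neuron-like nuclei, 4 of the 5 tested genes were called, beside 46.7% of all genes tested. *Nr4a1* was lower (log2 difference −1.31, SE 0.17, adjusted p = 7.15e-08). *Jun* was lower as well (−1.13, SE 0.34, adjusted p = 0.00697), as was *Arc* (−0.72, SE 0.28, adjusted p = 0.0396), while *Junb* was higher (0.59, SE 0.23, adjusted p = 0.0414). *Egr1* was not called (0.20, SE 0.16, adjusted p = 0.338). *Jun* rests on 21 UMIs in the striatal class and passed the filter mainly through the excitatory class, where it is higher. Its call was thus favoured by the filter, and the size of its difference is uncertain. Without any one library in turn, the difference of *Nr4a1* was −1.77 to −1.17 and that of *Jun* −1.44 to −0.96, and both stayed called. The calls of *Arc* and *Junb* ended without PE-low replicate 1, at −0.39 and 0.43, and that of *Junb* also without PE-low replicate 2, at 0.51, while *Egr1* was called higher without PE-low replicate 1, at 0.47. DESeq2 called *Nr4a1* and *Jun* but neither *Arc* nor *Junb*.

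In inhibitory against excitatory neuron-like nuclei, 2 of the 5 were called, both lower, beside 33.4% of all genes tested. They were *Arc* (log2 difference −2.78, SE 0.59, adjusted p = 0.000318) and *Nr4a1* (−1.63, SE 0.25, adjusted p = 2.55e-06). *Jun* (−0.57, SE 0.42), *Egr1* (−0.45, SE 0.24) and *Junb* (0.06) were not called. *Arc* rests on 3 UMIs in the inhibitory class and passed the filter through the classes where it is high, so its call was likely from the start and the size of its difference is uncertain. Without any one library, over the genes tested in 4 libraries, *Arc* stood at −3.18 to −2.31 and *Nr4a1* at −1.75 to −1.53, and both stayed called. With a new filter *Arc* was no longer tested without PE-low replicate 1 or PE-high replicate 1, which leaves 1 call each, and without PE-high replicate 2 *Egr1* was called lower (−0.87). In striatal against inhibitory neuron-like nuclei, *Arc* was higher (2.05, SE 0.70, adjusted p = 0.0192) and *Egr1* was higher (0.65, SE 0.26, adjusted p = 0.0422), 2 of 5 beside 41.8% of all genes. The *Egr1* call ended without PE-low replicate 2 (0.53) or PE-high replicate 1 (0.56), and the *Arc* call, which rests on the same 3 inhibitory UMIs, without PE-low replicate 1 (1.92). The difference of *Nr4a1* was 0.33 and was not called.

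**Figure D3:**
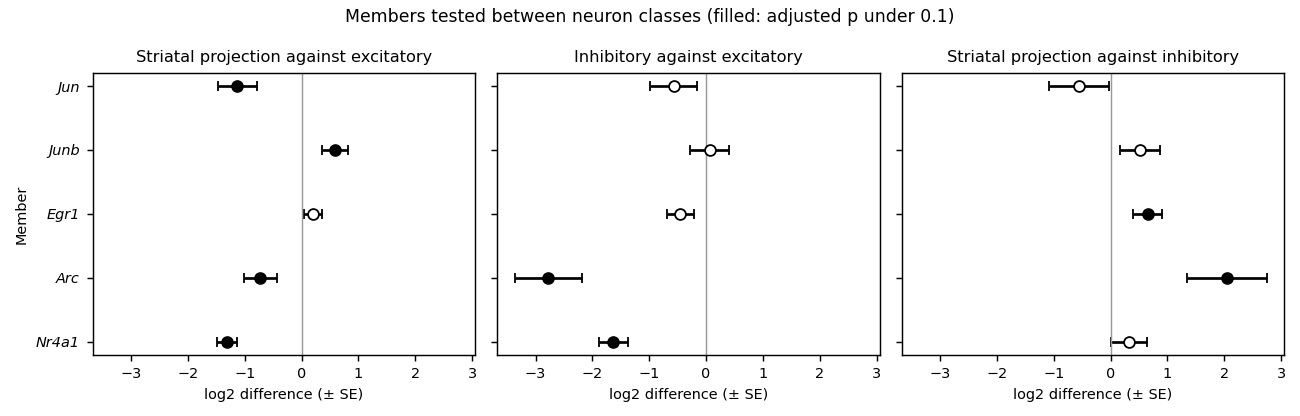
Log2 difference (x axis, with SE bars) of the 5 tested genes between pairs of neuron classes, by edgeR over 4 libraries with the library as a block. Filled points have an adjusted p under 0.1; *Nr4a1* lies at −1.31 and −1.63 in striatal and inhibitory against excitatory neuron-like nuclei.

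The nuclei kept can be widened to a mitochondrial limit of 15%, which raised them from 1457 to 3458 per library to 7601 to 10296. *Nr4a1* then stood at 35.6 ± 8.26, 12.5 ± 7.88 and 18.1 ± 3.86 CPM in excitatory, striatal and inhibitory neuron-like nuclei, and *Arc* at 11.5, 6.72 and 3.90. More genes then passed the filter and more of all genes were called. In striatal against excitatory nuclei 5 of 7 tested genes were called, *Npas4* among them as higher (0.53), beside 57.9% of all genes. In inhibitory against excitatory nuclei 5 of 7 were called, each of them lower, beside 44.1%, with *Arc* at −1.63 in place of −2.78 and *Nr4a1* at −1.07 in place of −1.63. The other calls there were *Egr1* (−0.53), *Nr4a3* (−0.77) and *Junb* (−0.45), of which *Egr1* and *Junb* had been tested at 3% and not called. In striatal against inhibitory nuclei 4 of 7 were called, each of them higher, beside 52.2%, with *Arc* at 0.90 in place of 2.05. The *Jun* difference in striatal against excitatory nuclei was −0.65 in place of −1.13 and that of *Junb* 0.35 in place of 0.59.

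Most of the 10 genes were higher in nuclei with a larger mitochondrial share, a comparison that was not tested. Over called nuclei of all classes, whose mix was not held constant between bins, *Egr1* was at 48.7, 25.3, 29.7 and 33.6 CPM in nuclei of 0 to 3% mitochondrial UMIs and at 111, 62.0, 81.0 and 73.2 in nuclei of 10 to 15%, higher in 4 of 4 libraries. *Jun* was at 8.96, 9.67, 8.59 and 7.93 against 30.4, 32.9, 19.6 and 26.6 CPM, and *Junb* at 20.1, 8.77, 9.25 and 9.49 against 31.3, 22.8, 24.8 and 31.6, also higher in each library. *Fos*, *Arc*, *Nr4a3* and *Ier2* were higher in the upper bin in 4 of 4 libraries too, on 1 to 23 UMIs per library there, and *Fosb* in 3 of 4. *Npas4* was lower in the upper bin in 3 of 4, and so was *Nr4a1*, with 39.2, 18.0, 22.8 and 23.2 against 21.7, 10.1, 24.2 and 13.3 CPM. *Egr1*, *Jun* and *Junb* were also higher in near-empty barcodes than in each neuron class in each library, and the part of background RNA in this pattern was not tested.

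**Figure D4:**
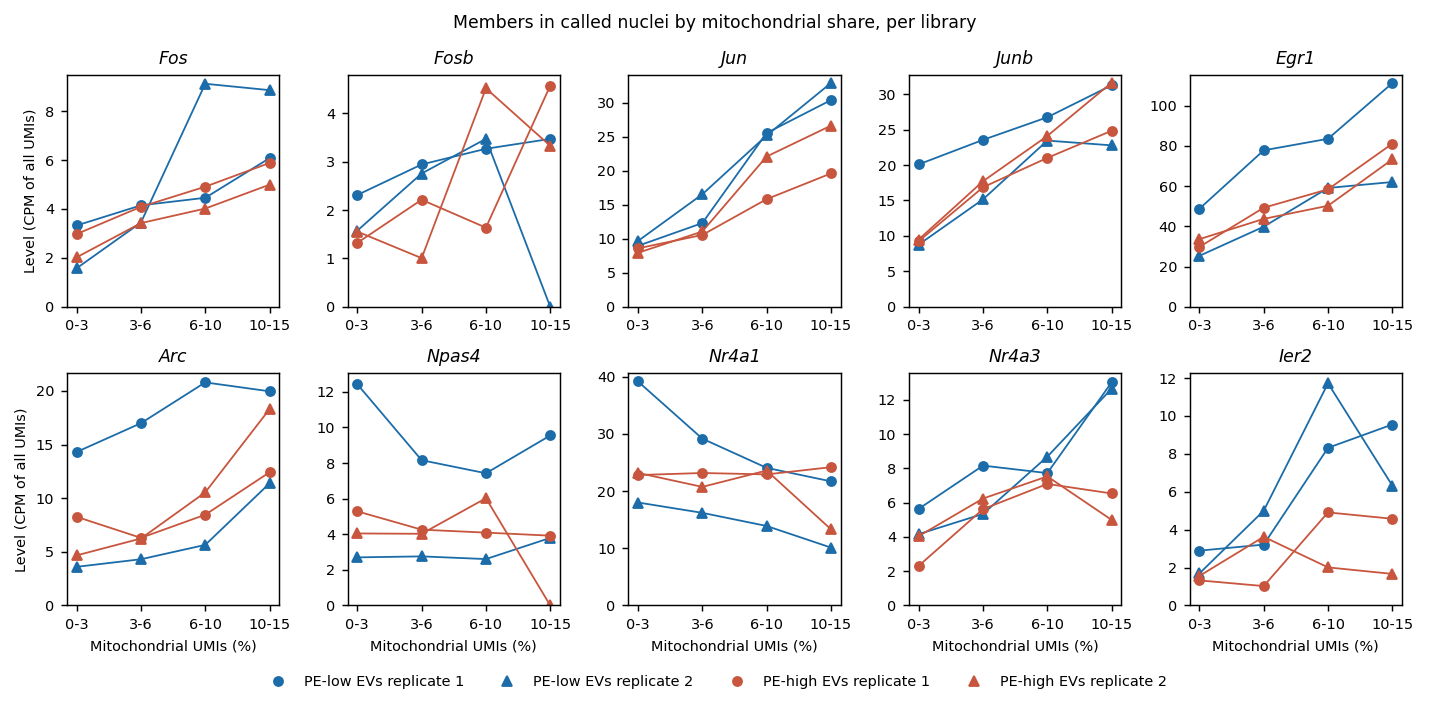
Level of the 10 genes (y axis, CPM) in called nuclei of all classes binned by the share of mitochondrial UMIs (x axis, 0 to 3, 3 to 6, 6 to 10 and 10 to 15%), one line per library (blue PE-low EVs, red PE-high EVs, circles replicate 1, triangles replicate 2). *Egr1* lies at 25.3 to 48.7 CPM in the lowest bin and 62.0 to 111 in the highest, while *Nr4a1* lies at 18.0 to 39.2 and 10.1 to 24.2.

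Excitatory subclasses did not keep one order over the libraries. *Nr4a1* was at 46.2, 34.5, 13.7 and 24.1 CPM in upper layer-like, 58.1, 24.2, 31.5 and 33.4 in middle layer-like, 50.03, 37.3, 51.7 and 84.9 in layer 5-like and 86.4, 46.1, 41.0 and 18.9 in layer 6-like nuclei. Layer 5-like nuclei were highest in PE-high replicates 1 and 2, and layer 6-like nuclei in PE-low replicates 1 and 2, so no layer led in every library. *Arc* was at 28.7, 5.30, 12.3 and 10.0 CPM in middle layer-like and 29.5, 8.23, 18.6 and 4.20 in layer 6-like nuclei, against 15.4, 6.91, 0 and 4.02 in upper layer-like and 3.13, 9.33, 0 and 3.15 in layer 5-like nuclei. These ranges overlapped too.

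Direct and indirect pathway-like nuclei are the main types of striatal projection neuron, which carry mainly D1 and D2 dopamine receptors. *Junb* was at 22.4, 9.06, 4.66 and 2.20 CPM in direct and 26.1, 17.5, 16.9 and 11.6 in indirect pathway-like nuclei, lower in the direct type in 4 of 4 libraries. These rest on 25 and 43 UMIs over the 4 libraries. The direct values of the PE-high libraries lie below the level of 3 UMIs there, 14.0 and 6.59 CPM. *Egr1* was at 41.8, 20.4, 56.0 and 37.3 against 45.6, 29.2, 50.6 and 49.8 CPM. Of the 10 genes 2 were tested and edgeR called 0, beside 7.49% of 7503 genes, and DESeq2 called 0. The log2 difference of *Junb* was −0.74 (SE 0.38, adjusted p = 0.349), 1 of 2 at an unadjusted p under 0.05, and that of *Egr1* was −0.25 (SE 0.23). *Nr4a1* was at 28.4, 4.53, 14.0 and 2.20 against 33.9, 13.1, 4.22 and 11.6 CPM, with no common direction.

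Few single nuclei held any of these transcripts. With each nucleus thinned to 1000 UMIs, *Nr4a1* was found in 5.54% of excitatory neuron-like nuclei of PE-low replicate 1 (67 of 1209, 95% exact binomial interval 4.32 to 6.98%). The other libraries had 2.71% (28 of 1032, 1.81 to 3.90%), 2.85% (20 of 701, 1.75 to 4.37%) and 2.65% (40 of 1507, 1.90 to 3.597%). The interval of PE-low replicate 1 overlapped that of PE-high replicate 1 and lay above those of the other libraries. The striatal shares were 2.90, 0.721, 0.617 and 0.833%, and the inhibitory shares 2.48, 1.10, 0.901 and 0.813%. Thinning left out 29, 4, 17 and 51 excitatory nuclei with under 1000 UMIs, and the unthinned excitatory shares were 13.9, 9.36, 6.96 and 6.48%. Oligodendrocyte-like nuclei, a glial class taken as the background for neurons, had 0.952% (1 of 105), 2.42% (4 of 165), 0 of 34, which by 3 counts of the total allows up to 8.82% with a UMI, and 3.57% (2 of 56), with median depths of 1597, 1354, 1578 and 956 UMIs before thinning. Beside them, the excitatory shares of *Nr4a1* were above in 3 of 4 libraries and the striatal and inhibitory shares in 2 of 4 each. These tallies include PE-high replicate 1, where the limit of 8.82% lies above each neuron share, so a higher share is not shown there. In PE-low replicate 2 the oligodendrocyte share of 2.42% lies within the excitatory interval of 1.81 to 3.90%. The oligodendrocyte shares rest on at most 4 positive nuclei, and no expression is read from a share at or below the oligodendrocyte one. The level in CPM of *Nr4a1* in excitatory nuclei was nevertheless above near-empty barcodes in 4 of 4 libraries. These intervals cover counting error only.

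At least 1 of the 10 genes was found in 18.9, 8.24, 8.70 and 8.89% of the thinned excitatory neuron-like nuclei. Striatal projection neuron-like nuclei had 13.3, 5.77, 8.95 and 6.39%, inhibitory neuron-like nuclei 7.92, 6.59, 2.70 and 6.91%, and oligodendrocyte-like nuclei 14.3, 9.09, 8.82 and 12.5%. Outside PE-low replicate 1, the excitatory shares were no higher than those of oligodendrocyte-like nuclei, which rest on 3 to 15 positive nuclei, and no expression is read from them. The part of background RNA in these shares was not tested. At least 2 of the genes were found together in 26 of 1209, 6 of 1032, 0 of 701 and 8 of 1507 excitatory nuclei, and no nucleus of any class held more than 3. Without thinning, 37.9, 26.1, 21.3 and 17.7% of excitatory nuclei held at least 1.

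PE-low replicate 1 stood apart in these genes in excitatory neuron-like nuclei. It was the highest library for 9 of 10 there, for 6 in striatal neuron-like nuclei and for 6 in near-empty barcodes. In inhibitory neuron-like nuclei it was highest for 4, as was PE-low replicate 2. Members were counted with any UMI, such as striatal *Fos*, *Fosb* and *Ier2* with 10, 13 and 7 UMIs, and most members had under 20 in the inhibitory class. The shares over all genes use a higher limit. Of all genes with at least 20 UMIs, PE-low replicate 1 was highest for 31.9% in the excitatory class, 25.2% in the striatal, 26.3% in the inhibitory and 23.7% in near-empty barcodes. The summed excitatory markers did not move with it, at 3219, 3249, 3078 and 3090 CPM in excitatory neuron-like nuclei. The mice, their handling and the library preparation cannot be told apart here.

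The treatment contrast asked whether vesicles rich in phosphatidylethanolamine were followed by other levels of the 10 genes than vesicles poor in it. In excitatory neuron-like nuclei 7 of the 10 genes were tested and edgeR called 0, with 1 of 7 (*Egr1*) at an unadjusted p under 0.05, beside 0.00759% of 13176 genes called (601 at an unadjusted p under 0.05). All 7 fitted differences were below 0, from −0.75 (SE 0.46) for *Arc* and −0.58 (SE 0.25, adjusted p = 1.0) for *Egr1* to −0.09 (SE 0.32) for *Jun*, with a median of −0.35 beside 0.0030 over all genes. *Nr4a1* was at −0.35 (SE 0.24), *Junb* at −0.35 (SE 0.35), *Npas4* at −0.31 (SE 0.50) and *Nr4a3* at −0.16 (SE 0.42). DESeq2 called 0 as well.

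For 5 of the 7 that direction rested on PE-low replicate 1. That of *Jun* turned when another library was left out, with a range of −0.32 to 0.25. Without PE-low replicate 1, *Arc* was at 0.46, *Npas4* at 1.04, *Junb* at 0.32, *Nr4a1* at 0.19 and *Nr4a3* at 0.14, *Egr1* lay at −0.00051 and *Jun* at −0.25, and 0 of these genes were called, beside 225 of 13619 genes in all. Without PE-low replicate 2, which leaves PE-low replicate 1 alone in its group and assumes that it varies as the PE-high libraries do, *Egr1* (−1.02), *Arc* (−1.44) and *Nr4a1* (−0.77) were called lower, as were 242 genes in all in either direction. *Arc*, for instance, stood at 20.4 and 5.36 CPM in the PE-low libraries, on either side of the 10.1 and 5.83 CPM of the PE-high libraries.

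In striatal projection neuron-like nuclei 4 genes were tested and edgeR called 0, with 1 of 4 (*Junb*) at an unadjusted p under 0.05, beside 0% of 10567 genes (449 at an unadjusted p under 0.05). *Junb* was at −0.96 (SE 0.44), *Nr4a1* at −0.99 (SE 0.52), *Egr1* at 0.28 (SE 0.26) and *Arc* at 0.21 (SE 0.63). Without PE-low replicate 2, *Nr4a1* (−1.64) and *Npas4* (−2.92) were called lower, and without PE-low replicate 1 *Nr4a1* turned to 0.25. In inhibitory neuron-like nuclei only *Egr1* was tested, at 0.49 (SE 0.47) and not called, beside 0% of 7478 genes (394 at an unadjusted p under 0.05), and it ran from −0.78 to 0.98 without any one library. None of the 10 genes had enough UMIs to be tested in the glial classes, where 0% of 3773 genes in astrocyte-like, 4130 in oligodendrocyte-like, 1655 in precursor-like and 1547 in microglia-like nuclei were called.

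**Figure D5:**
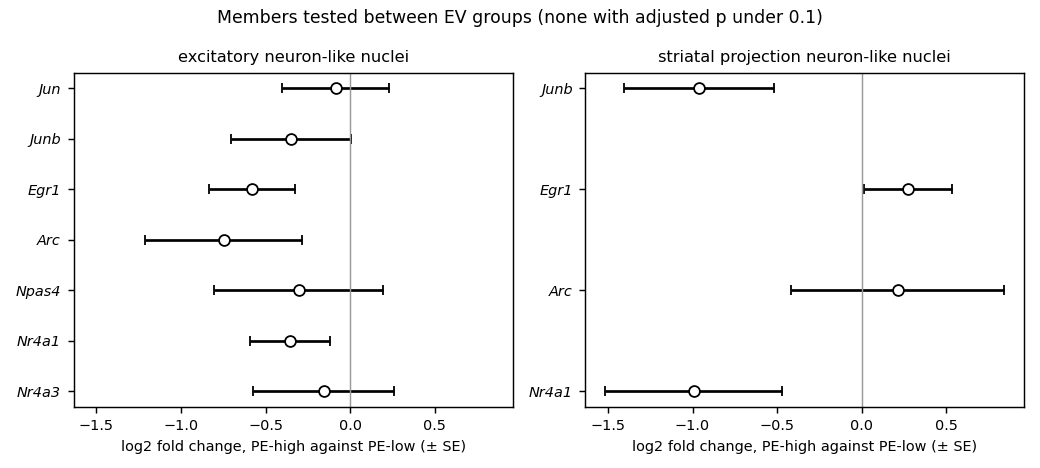
Log2 fold change of PE-high against PE-low EVs (x axis, with SE bars) for 7 genes in excitatory and 4 in striatal projection neuron-like nuclei, by edgeR with 2 libraries per group. No gene is called, and the values run from −0.99 for *Nr4a1* to 0.28 for *Egr1*, both in the striatal class.

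Whether the treatment difference itself varied between neuron classes was tested as an interaction over the 12 class and library sums, with 6 of the 10 genes tested. EdgeR and DESeq2 both called 0. The background was 0.0162% of 12374 genes for striatal against excitatory, 0.00808% for inhibitory against excitatory and 0.0323% for striatal against inhibitory neuron-like nuclei. The lowest unadjusted p was that of *Egr1*, whose difference was higher by 0.86 (SE 0.29, adjusted p = 0.675) in striatal and by 0.99 (SE 0.46, adjusted p = 0.978) in inhibitory than in excitatory neuron-like nuclei.

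Other activity genes were counted as whole lists. Of 14 other inducible transcription factors 6 were tested between neuron classes, of 18 other early response genes 7, of 10 delayed activity-dependent genes 10, of 11 upstream kinases and constitutive factors 10, and of 8 heat shock and stress genes 5. The upstream list, unlike the members and the other lists, had been left among the genes used for clustering. In striatal against excitatory neuron-like nuclei, where 46.7% of all genes were called (2713 higher and 2624 lower), 0 factors were higher and 1 lower, 4 early response genes were higher and 1 lower, 5 delayed genes were higher and 5 lower, 6 upstream genes were higher and 2 lower, and 2 stress genes were higher and 0 lower. *Nr4a2*, the third receptor of the Nr4a family, was the factor that was lower (log2 difference −3.43, SE 0.38, adjusted p = 1.25e-09). *Mef2c*, a calcium-responsive transcription factor, was lower (−1.55, adjusted p = 6.9e-18) and *Nrn1*, a secreted neurite growth factor, was lower (−1.64, adjusted p = 1.04e-13). *Camk4*, a calcium-dependent nuclear kinase that phosphorylates CREB, was higher (1.56, adjusted p = 1.67e-17), as were *Rps6ka5*, a kinase of CREB and histone H3 (1.91, adjusted p = 2.02e-16), and *Baz1a* (2.65, adjusted p = 2.69e-12). The median of the 5 tested members was −0.72 beside 0.02 over all genes.

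In inhibitory against excitatory neuron-like nuclei, where 33.4% of all genes were called (1870 higher and 1954 lower), 20 of the 21 calls in the 5 lists were lower. None of the factors was higher and 4 were lower, 0 early response genes were higher and 3 lower, 1 delayed gene was higher and 8 lower, 0 upstream genes were higher and 5 lower, and 0 stress genes were called. *Camk4* (−1.58, adjusted p = 3.48e-13), *Homer1*, a postsynaptic scaffold gene (−1.25, adjusted p = 1.66e-12), and *Nrn1* (−2.03, adjusted p = 1.01e-11) led, and the one gene that was higher was *Scg2*, a secretory granule protein (0.71, adjusted p = 0.000144). The members' median was −0.57 beside 0.02. In striatal against inhibitory nuclei, where 41.8% of all genes were called (2336 higher and 2449 lower), 3 factors were higher and 1 lower, 5 early response genes higher and 0 lower, 3 delayed genes higher and 2 lower, 5 upstream genes higher and 1 lower, and 2 stress genes higher and 0 lower. The higher genes included *Camk4* (3.14), *Rasgrp1* (2.11) and *Homer1* (1.70), and the lower genes *Mef2c* (−0.80), *Pcsk1* (−0.89) and *Sorcs3* (−0.45), with a members' median of 0.52 beside −0.0015.

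Between direct and indirect pathway-like nuclei, *Rps6ka5* was higher (1.00, adjusted p = 9.29e-22) and *Crtc1*, a CREB coactivator, was higher (0.48, adjusted p = 0.0599) in the direct type, and *Sorcs3*, a sorting receptor, was lower (−1.11, adjusted p = 3.12e-22). These were the only calls in the 5 lists, in which 3, 4, 7, 8 and 3 genes were tested, beside 7.49% of all genes. No gene of the 5 lists was called between PE-high and PE-low EVs in any class.

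The genes whose pattern over the 7 classes was most like that of the summed members were named from 15346 genes, by Pearson's r of log2(CPM + 1) with class means of 4 libraries. They were *Gm46123* (r = 0.978), *Ercc3* (r = 0.960), *Inka2* (r = 0.957), *Zbtb18* (r = 0.951) and *Nudt18* (r = 0.941), over 7 points that share the 4 libraries. All 5 were highest in oligodendrocyte precursor-like nuclei, the class with the highest summed level of the members and few nuclei, and the likeness is a description only.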

How the data were processed

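Per the submitters' processing notes, Cell Ranger 7.1.0 was run on mm10. The authors deposited its unfiltered UMI counts of each library. Names and order came from the gene and barcode lists, whose unit is other than a measurement. Whether intronic reads were counted is not given in the sources used here.

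Barcodes at or above a UMI cut-off set per library, 573, 839, 405 and 422 UMIs, were called as nuclei without a test. Barcodes below it with at least 500 UMIs were tested against 10000 simulated draws from near-empty barcodes (false discovery rate 0.01). That test added 366, 953, 0 and 0 nuclei, so both PE-high libraries were called by the cut-off alone, which was lower than in the PE-low libraries. The limits that the paper states were then applied to the called nuclei (mitochondrial share up to 3%, 200 to 2500 detected genes), and doublets were not removed. They were clustered with scanpy 1.11.5 and leidenalg 0.10.2 (2000 variable genes, 30 components, 20 neighbours, resolution 0.8). The members and the listed inducible, delayed and stress genes were left out of the variable genes, but the upstream kinases and constitutive factors were not. Clusters were named from at least 3 markers, by thresholds set after the clusters were seen. Library totals were 41470611, 43272337, 32515094 and 29472021 UMIs.

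Counts were summed per library and class (at least 10 nuclei) and tested with edgeR 4.0.16 (filterByExpr, TMM, quasi-likelihood F, R 4.3.3), with Benjamini-Hochberg adjustment and a threshold of 0.1. The 3 neuron classes were compared in 1 fit with library as a block. The SE is the log2 difference divided by the square root of F. The tests were checked on simulated data. Alternatives were DESeq2 1.42.0, no filter, 15% mitochondrial UMIs, no upper gene limit, resolution 1.5, members kept in the clustering, a threshold of 0.05, replicate number as a block and each library left out. One further alternative, keeping the genes tested in 4 libraries when one is left out, was chosen after seeing the data. Promoters were searched as spelled in the report, the AP-1 site with C or G at its centre.

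All 10 members are named. From the other lists, at most 3 higher and 3 lower called genes with the smallest p are named per comparison. Members and lists were chosen with earlier results of these data known.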

Additional observations from a re-analysis of the deposited data

How the results depend on the processing

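Of 177 values that count the members called, 161 stayed within 1.5 times of the reported count. That reported count was 0 in most comparisons, and in the glial treatment contrasts no member was tested at 3%. An unchanged count there was largely fixed in advance, so 161 of 177 does not measure how stable the calls between neuron classes were. Of 386 log2 differences of members 328 kept their direction and their side of the threshold. In striatal against excitatory neuron-like nuclei DESeq2 called 2 members in place of 4, and the counts without any one library were 2 to 4. In inhibitory against excitatory neuron-like nuclei 5 members were called without a filter and 5 at a mitochondrial limit of 15%, in place of 2, with 1 to 3 without any one library. In striatal against inhibitory neuron-like nuclei 4 were called at 15% and 1 without an upper limit on genes, in place of 2, with 0 to 3 without any one library. Between PE-high and PE-low EVs, 0 to 3 members were called in excitatory and 0 to 2 in striatal neuron-like nuclei when a library was left out. The causes were not tested. At 15% some of the new calls were of members already tested at 3%, such as *Junb* and *Egr1* in inhibitory against excitatory nuclei. Others, such as *Nr4a3* there, had not passed the filter at 3%.

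Several log2 differences that had not been called changed sign. At 15%, *Egr1* (−0.22) and *Arc* (−0.51) did so in the striatal treatment contrast, *Junb* in inhibitory against excitatory nuclei (−0.45) and *Nr4a1* in striatal against inhibitory nuclei (−0.33). Of these, *Junb* was then called lower and the others were not called. With members kept in the clustering, the striatal treatment difference of *Arc* was −0.12, *Junb* in inhibitory against excitatory nuclei −0.070, *Nr4a1* in striatal against inhibitory nuclei −0.0055 and *Egr1* in direct against indirect pathway-like nuclei 0.019. *Junb* in inhibitory against excitatory nuclei was also −0.024 without a filter, −0.12 without an upper limit on genes and −0.17 at resolution 1.5. Without any one library, the excitatory treatment differences ran from −0.32 to 0.25 for *Jun*, −0.81 to 0.32 for *Junb*, −1.02 to −0.00051 for *Egr1*, −1.44 to 0.46 for *Arc*, −1.02 to 1.04 for *Npas4*, −0.77 to 0.19 for *Nr4a1* and −0.78 to 0.14 for *Nr4a3*. The striatal ones ran from −0.0063 to 0.64 for *Egr1*, −0.45 to 1.48 for *Arc*, −1.64 to 0.25 for *Nr4a1* and −1.40 to −0.34 for *Junb*, and that of *Egr1* in inhibitory nuclei from −0.78 to 0.98. *Egr1* in striatal against excitatory nuclei ran from −0.030 to 0.47 (−0.029 with a new filter), *Junb* in inhibitory against excitatory nuclei from −0.068 (−0.066 over the genes tested in 4 libraries) to 0.19, and *Jun* and *Nr4a1* in striatal against inhibitory nuclei from −0.99 to 0.15 and from −0.015 to 0.42.

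Shares of nuclei moved with depth by construction. The mean share with *Nr4a1* was 1.74% thinned to 500 UMIs and 9.18% unthinned in excitatory, 2.82% unthinned in striatal, and 0.332 and 2.86% in inhibitory neuron-like nuclei. For *Egr1* it was 1.58 and 8.56%, 1.79 and 7.81%, and 1.28 and 5.71%.

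With the replicate number as a block, 0 members were called in each treatment contrast, as without it, while the genes called in all went from 1 to 49 in excitatory, 0 to 40 in striatal, 0 to 2 in inhibitory, 0 to 149 in astrocyte-like and 0 to 16 in oligodendrocyte-like nuclei. The replicate pairs share only a number, and their deviations correlated at 0.0532, 0.0795 and 0.117 in the neuron classes. Counts of all genes called also moved by over 1.5 times in the excitatory treatment contrast (13 by DESeq2, 34 without a filter) and the striatal one (10 without a filter, 6 without an upper limit on genes, 5 at resolution 1.5). They did so in astrocyte-like nuclei (17 by DESeq2), in direct against indirect pathway-like nuclei (225 by DESeq2 in place of 562) and in inhibitory against excitatory nuclei (5744 at 15% in place of 3824). Depth limited the low members, since *Fos*, *Fosb* and *Ier2* had under 40 UMIs in any neuron class and were not tested in the main results. At 15% they had 82, 60 and 45 UMIs in excitatory nuclei. All members were then tested in the excitatory treatment contrast. Their differences were all below 0, from −1.80 (SE 0.52) for *Ier2* to −0.045 for *Nr4a3*, and none was called. *Fosb* was at −1.04 (SE 0.38) and *Fos* at −0.24. *Egr1* was tested in each glial class at 15%, and no tested member was called there.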
